A study of Apis mellifera with 20 samples.

Results

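Among the 15314 gene models listed for honeybee (Apis mellifera) larvae, 301 span more than 64 kb from their first to their last base, with a length of end minus start plus 1. They make up 1.97% of the models and 30.4% of the summed span of all models. Their median span is 100064 bases and the longest reaches 328254 bases, against a median of 6573 bases for the 4077 models of 4 to 16 kb with which they were compared. Of the 301, 204 span up to 2 times the threshold, 89 span 2 to 4 times the threshold and 8 span more. The members were chosen by span alone, with no measured value, so their expression and pulldown values were open to test. The models carry IDs that start with GB, and 0 of the 15314 matched an entry among 12398 RefSeq genes (assembly Amel_HAv3.1). No gene name, function or cell type marker list could therefore be attached to them, and the labelled tissue, whole larvae, could not be checked against markers.

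The series measured messenger RNA and its N6-methyladenosine (m6A) in whole larvae of 5 kinds, with no transgene or drug in any group. Larvae of instar 1 (L1) can still become either caste, and queen and worker larvae were taken at instar 3 (L3) and instar 5 (L5). Each kind has 2 libraries of polyadenylated RNA fragments (input) and 2 libraries of fragments pulled down with an m6A antibody (IP), 20 in all. None is a pulldown without the m6A antibody, so IP over input is not a measured m6A level. The labels do not say whether the 2 replicates came from separate colonies or collections, and p-values then speak only of the scatter among these libraries, part or all of which may be technical. In whole larvae, fewer cells of a type and less RNA per cell cannot be told apart.

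As background, m6A is laid on messenger RNA by a methyltransferase complex built around METTL3 and METTL14 and is bound by reader proteins with a YTH domain. In mammals it is often found in long internal exons and around stop codons. A gene that spans a long stretch of genome does so mostly through its introns, which are spliced out of the messenger RNA, so span is not the length of the message. In Drosophila, genes with long introns often encode cell adhesion molecules, ion channels and regulators of development, many of them used in the nervous system. Whether this holds for the models described here cannot be read from IDs.

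Levels are given in FPKM, the authors' count of fragments per model scaled for model length and library size. Whether that length is of the exons or of the span is not given in the sources used here, and read depth is unknown. Summed FPKM ranged from 529489 to 674587 in the input libraries and from 512177 to 891050 in the IP libraries. Libraries of L5 stood apart: over all models, their input listed 4292 to 5430 at 0, against 2993 to 3822 in the L1 and L3 input. Their IP listed 1384 to 1734 at 0, against 2433 to 3667 in the L1 and L3 IP. The labels give no batch, so instar and the making of the L5 libraries cannot be told apart. A value of 0 can be a failed estimate and is described as listed at 0.

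Models over 64 kb had a median of 3.35 and 4.96 FPKM in the L1 input, 1.24 to 1.88 at L3 and 0.664 to 0.979 at L5, and fewer were above 1 FPKM in each later instar. In the L1 input libraries 203 and 206 of the 301 were above 1 FPKM. The L3 libraries had 162 to 177 and the L5 libraries 137 to 149. On FPKM as deposited the 3 instars did not overlap in this count. On scaled values, where the number at 1 or more was 187 and 196 at L1, 154 to 177 at L3 and 144 to 155 at L5, the first queen library of L5 lay just above the first queen library of L3. The number listed at 0 was 46 and 52 at L1, 51 to 68 at L3 and 76 to 127 at L5. In the IP libraries of L5, in contrast, 8 to 12 were listed at 0, a difference that followed the libraries as a whole. Among models of 4 to 16 kb, the share above 1 FPKM was 83.4% and 83.9% at L1, 74.7% to 78.8% at L3 and 72.6% to 76.0% at L5.

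To compare at equal level, long models were set against models of 4 to 16 kb weighted to the same mix of input levels. Input FPKM was divided by a factor per library that brings the typical gene to the same level, and 177 of the 301 models had a mean scaled input FPKM of at least 1. The other 124 were under it and enter no count of expression changes over the 10 input libraries. For the 177, the median scaled input was 6.003 and 8.74 in the L1 libraries. Queen libraries had 4.58 and 5.89 at L3 and 3.21 and 2.90 at L5, and worker libraries 6.03 and 5.97 at L3 and 3.41 and 3.39 at L5. All 4 L5 libraries lay below all 6 of L1 and L3, and the 2 L1 libraries differed from each other more than those of any other kind. The 3271 models of 4 to 16 kb, at like level, had medians of 5.87 and 6.04 at L1, 4.57 to 4.81 at L3 and 4.43 to 5.00 at L5. The mean level was lowest in L5 queens for 77 of the 177 (43.5%, against 29.6% of the models of like level) and in L5 workers for 52 (29.4%, against 20.7%). It was highest at L1 for 74 (41.8%, against 34.4%) and in L3 workers for 48 (27.1%, against 13.1%).

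**Figure D1:**
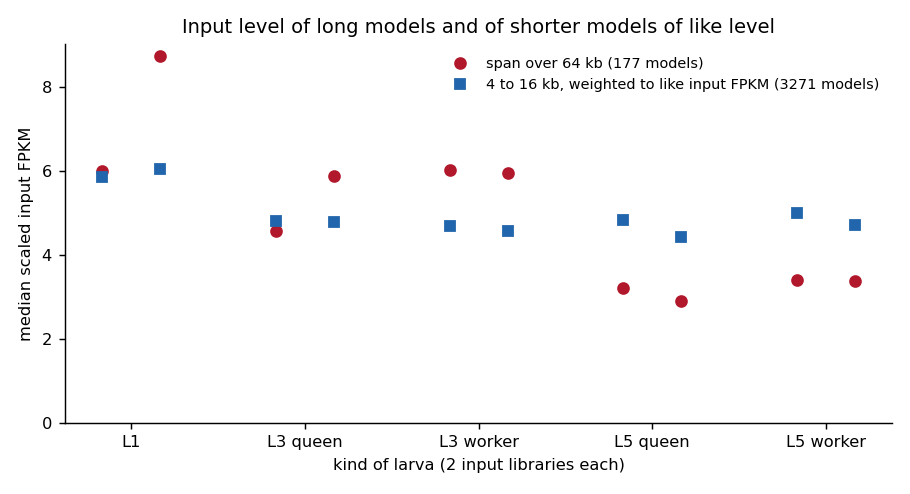
Median scaled input FPKM (vertical axis, from 0) in each of the 10 input libraries, 2 per kind of larva, for the 177 models spanning over 64 kb (circles) and for the 3271 models of 4 to 16 kb weighted to like input FPKM (squares). The long models lie at 2.90 to 3.41 in the 4 L5 libraries and at 4.58 to 8.74 in the other 6, while the squares stay between 4.43 and 6.04.

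From L3 to L5 the models over 64 kb changed mostly downward in both castes. In queens 65 of 177 were lower at L5 and 14 higher (limma, adjusted p under 0.05). Of all 10119 models tested, 24.6% were lower and 19.5% higher, and of the 4 to 16 kb models of like level 21.9% were lower and 15.0% higher, against 36.7% and 7.91% of the long ones. In workers 61 of 177 were lower at L5 and 6 higher, which is 34.5% and 3.39%. The background in workers was 21.7% lower and 15.3% higher over all models, and 15.7% and 13.5% in the models of like level. The median log2 change of the long models was -0.61 in queens and -0.72 in workers, against -0.08 and -0.10 for all models and -0.11 and 0.00 for those of like level. With both directions summed, 44.6% of the long models were called in queens beside 44.2% of all models, and 37.9% beside 37.0% in workers. Some passed the filter on low values only through the instar in which they were high, averaging under 1 FPKM outside it. These were 2 of the 65 lower and 3 of the 14 higher in queens, and 3 of the 61 lower and 2 of the 6 higher in workers. Over all models 4.33% to 7.45% of the calls did so. When tried on simulated data with 200 changed models, 24.7% of the calls in queens and 27.6% of those in workers were false. That is more than the adjusted p states, so single calls from L3 to L5 are less certain than their p-values read. The simulation changed 200 models, where the data had 4469 calls in queens and 3741 in workers. The false share in the data may thus differ. With a weight per library 47 were lower and 11 higher in queens (18.9% and 14.9% of all models) and 55 lower and 7 higher in workers (20.6% and 14.8%). With the spread of L5 and that of younger larvae estimated apart, an alternative added after the data were seen, 61 were lower and 16 higher in queens (20.7% and 16.5% of all models) and 55 lower and 5 higher in workers (18.4% and 12.2%).

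The 2 castes shared no library here. Of the lower models 42 were lower in both castes, 64.6% of the queen list and 68.9% of the worker list, where all models tested shared 58.2% and 66.0%. None of the 177 was called in opposite directions, as 95 of all models were (2.13% of those called for queens, 2.54% of those for workers). Of the 774 models of 16 to 64 kb, the next shorter class, 37.2% were lower at L5 in queens and 30.1% in workers. Among the long models that overlap no other model, 40 of 105 were lower and 7 higher in queens, and 36 were lower and 2 higher in workers. Of all models that overlap no other, 26.6% were lower and 18.4% higher in queens and 23.1% and 14.6% in workers. At L5, 13 of the 177 models in queens and 16 in workers were listed at 0 in 1 input library and above 1 FPKM in the other, against 0 or 1 in the younger larvae. That is 7.34% and 9.04%, where the models of like level had 4.79% and 3.52%. Without such models, chosen once they had been seen, 59 of 164 were lower and 14 higher in queens and 56 of 161 lower and 6 higher in workers. The share of all models after the same exclusion is not given here, so these counts have no background beside them. Without L3 queen replicate 2 the queen counts were 31 lower and 9 higher, 17.6% and 5.11%, beside 14.6% and 12.1% of all models. Without L3 worker replicate 1 the worker counts were 26 lower and 5 higher, 14.6% and 2.81%, beside 12.3% and 7.9% of all models, and without replicate 2 they were 24 and 4, 13.6% and 2.27%, beside 11.4% and 6.88%. In these 3 fits the share of long models that was lower was closer to that of all models, and the share that was higher stayed below it.

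GB55715 (Group6.38, 563152 to 673082, plus strand) had the largest fall named in queens among models over 64 kb. Its input was 31.2 and 64.1 FPKM at L1. Queens had 37.8 and 78.7 at L3 and 4.13 and 3.95 at L5, and workers 19.9 and 27.5 at L3 and 3.89 and 4.15 at L5. All L5 values lay below all younger ones, and the change in queens was -3.05 ± 0.45 log2 units (SE, n = 2 and 2, limma adjusted p = 0.00106). GB50342 (Group1.3, 102103 to 201321, minus strand, overlapping other models) had 7.32 and 6.49 FPKM in L3 workers, while 1 L5 worker library had 1.27 and the other was listed at 0. Its change in workers was -2.73 ± 0.39 log2 units (limma adjusted p = 0.00121). In the other direction, GB42948 (Group10.11, 184152 to 249032, plus strand, overlapping another model) had 0.602 and 1.45 FPKM in L3 queens and rose to 5.90 and 8.26 at L5, a change of 2.29 ± 0.49 (limma adjusted p = 0.00649). It passed the filter on low values only through L5, with a mean of 0.626 FPKM in younger larvae. Its call was lost without L3 queen replicate 1 (limma adjusted p = 0.0511) and at a pseudocount lowered to 0.1 (limma adjusted p = 0.0788). GB41856 (Group8.9, 241719 to 365292, plus strand) began at 1.26 and 0.737 FPKM in L3 workers and rose to 11.3 and 4.67 at L5 (limma adjusted p = 0.00624), and its call was lost without L3 worker replicate 2 (limma adjusted p = 0.0563).

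From L1 to L3 more long models fell than rose, in comparisons that share the L1 libraries and depended on 1 of them. In L3 queens 49 of 180 long models were lower than at L1 and 9 higher, 27.2% and 5.00%, where all 10026 models had 11.3% lower and 10.7% higher and the models of like level 16.9% and 6.47%. In L3 workers 40 of 180 were lower and 14 higher, 22.2% and 7.78%, where all models had 21.2% lower and 20.1% higher and those of like level 28.1% and 11.3%, so the share that fell in workers was close to the background (41.3% of all models were called in either direction). Of the lower models, 8 of 49 in queens and 7 of 40 in workers averaged under 1 FPKM outside L1, and so passed the filter on low values only through L1. Over all models 154 of 1137 lower calls in queens (13.5%) and 166 of 2130 in workers (7.79%) did so. The medians were -0.38 log2 units in queens and -0.29 in workers. Without L1 replicate 2, the L1 library with the higher level, they were -0.12 and 0.03, with 16 lower and 7 higher of 174 in queens (9.2% and 4.02%, beside 6.95% and 8.71% of all models) and 24 lower and 23 higher in workers (13.8% and 13.2%, beside 14.8% and 17.1%). The queen calls also dropped to 17 lower without L3 queen replicate 1 (9.39%, beside 6.2% of all models) and to 30 lower without L3 queen replicate 2 or either L3 worker replicate (16.6%, beside 7.81% to 8.02% of all models). The worker calls dropped to 24 lower without either L3 worker replicate (13.3%, beside 10.2% and 11.2% of all models). On FPKM as deposited, which moved the median of all models from -0.05 to -0.91, the worker split was 5 higher and 135 lower (2.78% and 75%, beside 6.07% and 71.6% of all models).

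The largest change between L1 and L3 was that of GB43005. This model (Group1.16, 325213 to 408524, minus strand), which overlaps no other model, had 7.24 and 8.36 FPKM at L1. Queens had 721 and 820 at L3 and 50.3 and 92.4 at L5, and workers 153 and 126 at L3 and 213 and 275 at L5, so no L1 value overlapped an older one. It was the most abundant long model, higher in L3 queens than at L1 by 6.66 ± 0.18 log2 units (SE, limma adjusted p = 2.18e-05) and in L3 workers by 4.91 ± 0.18 (limma adjusted p = 1.54e-05). GB42565 (Group7.9, 416812 to 547007, plus strand, overlapping other models) had 7.93 and 9.15 FPKM at L1 and rose to 22.9 and 19.95 in L3 queens and, among L3 workers, to 21.3 and 16.3 (limma adjusted p = 0.00361 and 0.000618). Among those that fell, GB54988 (Group1.41, 299205 to 393893, plus strand) had 31.8 and 29.5 FPKM at L1, and at L3 queens kept 9.30 and 6.71 and workers 2.35 and 2.13 (limma adjusted p = 0.00148 and 0.000120). At L5 it had 1.12 and a value listed at 0 in queens and 0.813 and a value listed at 0 in workers. GB43751 (Group9.5, 242968 to 311385, minus strand) had 5.996 and 7.18 FPKM at L1 and at most 0.425 in the L3 libraries, and it was listed at 0 in all 4 L5 input libraries. GB54690 (Group15.10, 231707 to 329529, plus strand, overlapping another model) had 4.32 and 6.73 FPKM at L1 and at most 0.0891 at L3. Both GB43751 and GB54690 passed the filter only through L1, where they were high (mean scaled input 0.316 and 0.019 FPKM over the L3 libraries), and a model that does so is bound to differ.

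Between castes few long models were called. At L3, 11 of 180 were higher and 15 lower in queens, 6.11% and 8.33%, where all models had 10.8% higher and 13.1% lower and the models of like level 10.2% and 7.96%. The split was 56 higher and 6 lower on FPKM as deposited, where all models had 53.0% higher and 4.51% lower, so its direction depends on the scaling. The total of 26 (14.4%) was 8 without L3 queen replicate 1 (4.42%, beside 10.5% of all models) and 6 without either L3 worker replicate (3.31%, beside 7.22% and 7.54%). Without L1 replicate 1, in contrast, it was 37, with 25 lower (13.9%, beside 13.3% of all models) and 12 higher. GB43005 was higher in L3 queens by 1.75 ± 0.18 log2 units (SE, limma adjusted p = 0.00171), with the values above. GB46564 (Group4.12, 14133 to 90242, minus strand) had 10.8 and 21.7 FPKM in the L3 queen libraries and 47.3 and 53.2 in those of workers, a difference of -2.33 ± 0.41 (limma adjusted p = 0.0113). Its call was lost without L3 worker replicate 1 (limma adjusted p = 0.0690) and without replicate 2 (limma adjusted p = 0.0755). GB50342 was lower in queens as well (limma adjusted p = 0.00234), at 3.39 and 3.49 FPKM against 7.32 and 6.49.

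At L5, 1 of 153 long models passed between castes (limma, 0.773% of all 9702 models did), and 21 (13.7%) had an unadjusted p under 0.05, as 1346 of all models did (13.9%). It was GB55997 (Group3.1, 354277 to 440232, minus strand, overlapping another model), higher in queens by 2.68 ± 0.30 log2 units (limma adjusted p = 0.0396). Its L5 queen libraries had 28.9 and 21.6 FPKM and its L5 worker libraries 3.37 and 2.69. At L3 the values were 6.09 and 7.82 against 0.537 and 0.167, so queens were above workers in both instars without overlap. The L3 difference was 2.20 ± 0.28 (limma adjusted p = 0.00353). The L5 call was lost without any 1 of the 4 L5 libraries, with limma adjusted p between 0.307 and 0.639, at a pseudocount lowered to 0.1 (limma adjusted p = 0.0617) and with no filter on low values (limma adjusted p = 0.0817). On simulated data the L5 fit between castes recovered 38.7% of changes of 3 log2 units and 0% of those of 1. A long model that was not called may thus still differ. The caste difference at L5 minus that at L3 passed for 2 of 177 long models, both lower (7.98% of all models passed, 4.78% higher and 3.2% lower). They were GB43005 and GB41094.

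**Figure D2:**
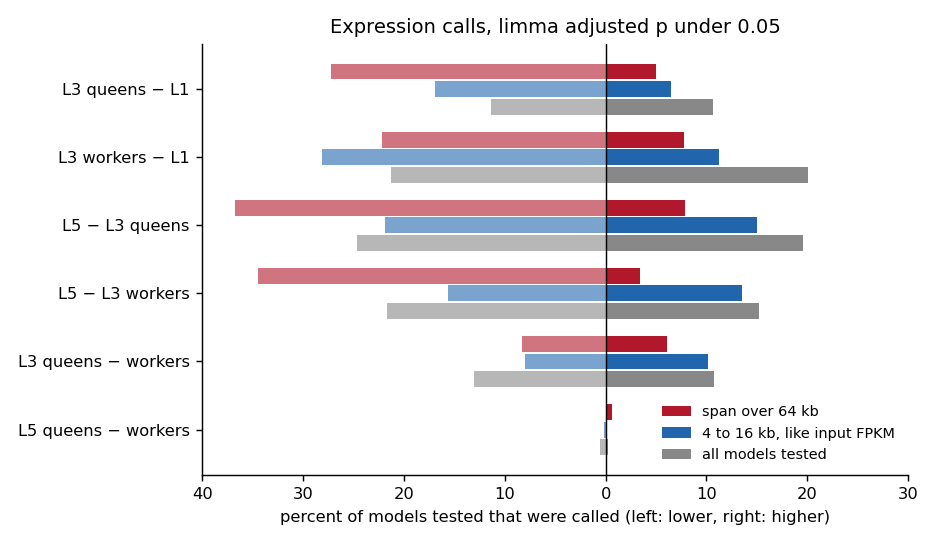
Percent of models tested that were called in input (limma, adjusted p under 0.05), lower to the left in pale bars and higher to the right in full bars, for models over 64 kb, 4 to 16 kb models of like input FPKM, and all models. In both L5 against L3 comparisons the long models have the longest bar to the left, 36.7% in queens and 34.5% in workers, and the shortest to the right, 7.91% and 3.39%.

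In the pulldown, long models were enriched far more often than depleted. Over all larvae 125 of 194 were higher in IP than in input and 9 lower (limma, adjusted p under 0.05), 64.4% and 4.64%. Of all 10391 models 35.7% were higher and 30.3% lower, and of the 4 to 16 kb models of like level 44.0% and 21.5%. The median log2 ratio was 0.62 for the long models, 0.21 for those of like level and 0.05 for all. Of the 125, 52 were enriched at least 2-fold, and 0 of the 9 lower ones were depleted 2-fold. The share of all models past 2-fold was not computed. The ratio was above 0 in 172 of the 194, beside 52.5% of all models. It is a ratio of whole models set against the typical gene of these libraries, and single m6A sites cannot be seen in it. The filter on low values took the mean of IP and input together. It let in 194 long models, where 177 had a mean scaled input of at least 1 FPKM. Some thus passed only through their IP, and for these a higher IP is no independent sign of enrichment.

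Among long models spanning 2 to 4 times the threshold, 39 of 51 were higher and 0 lower. Below 2 times the threshold 83 of 136 were higher and 9 lower, and above 4 times 3 of 7 were higher and 0 lower. These differences between span ranges were not tested. The next shorter class, 16 to 64 kb, had 56.2% higher and 11.1% lower of 810. Long models that overlap no other model had 77 higher and 4 lower of 111, and those that overlap one had 48 and 5 of 83. At L1 the median ratio was 0.73 for 91 models on the plus strand and 0.58 for 86 on the minus strand.

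By kind of larva, the median enrichment of the 177 long models was larger in the L1 and L3 larvae than at L5. The median log2 ratio was 0.68 at L1. In queens it was 0.57 at L3 and 0.38 at L5, and in workers 0.50 and 0.38. Models of 4 to 16 kb of like input level had 0.07 at L1, 0.07 and 0.13 in queens and 0.04 and 0.11 in workers. The next shorter class, 774 models of 16 to 64 kb without weighting, was also higher at L1 and L3 than at L5. It had 0.50 at L1, 0.44 and 0.30 in queens and 0.43 and 0.22 in workers. The gap between the span classes was 0.58 and 0.66 at L1, in same-numbered pairs of IP and input libraries, which the labels do not say were made from 1 RNA sample. It was 0.49 and 0.54 in the L3 queen pairs and 0.31 and 0.16 in those of L5, and for workers 0.55 and 0.51 at L3 and 0.21 and 0.38 at L5. The gap was positive in 10 of 10 pairs, from 0.49 to 0.66 in the 6 pairs of L1 and L3 and from 0.16 to 0.38 in the 4 of L5, without overlap. Like level here refers to the mean over all 10 input libraries, and within a kind the input levels differed. At L5 the median input was 2.90 to 3.41 for the long models and 4.43 to 5.00 for the others. In L1 replicate 2 it was 8.74 against 6.04, so the gaps of the instars were not taken at like level within each. IP exceeded input in every one of the 10 pairs for 67 of the 177 (37.9%, against 16.4% at like level), and was below input in all 10 for 2 (1.13%, against 9.05%).

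**Figure D3:**
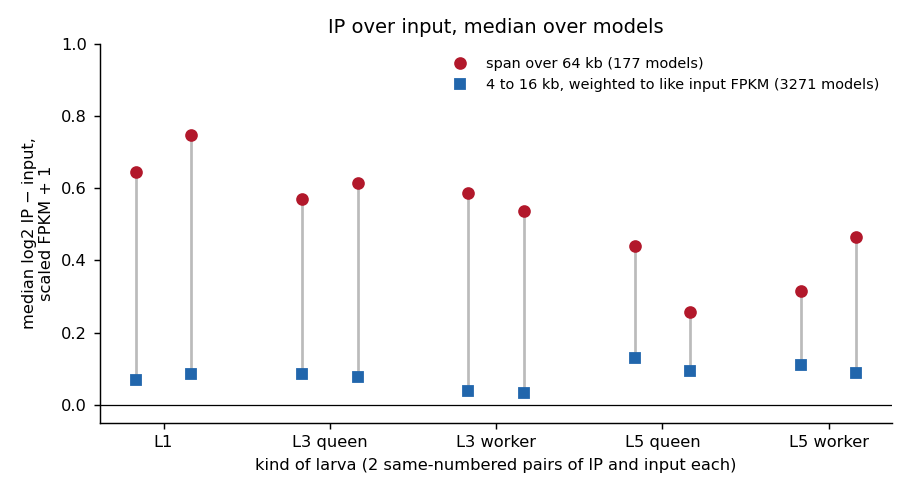
Median log2 IP minus input of scaled FPKM + 1 (vertical axis) in the 10 same-numbered pairs of libraries, 2 per kind of larva, for the 177 models over 64 kb (circles) and the 3271 models of 4 to 16 kb of like input FPKM (squares). A grey line joins the values of a pair: the gap is 0.49 to 0.66 in L1 and L3 and 0.16 to 0.38 in L5.

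The input level enters the ratio as its divisor, so the classes were also compared within bins of mean input FPKM. At 8 to 16 FPKM, the 36 long models had medians of 0.95 at L1 and, at L3, of 0.88 in queens and 0.94 in workers, where the 752 models of 4 to 16 kb had 0.06, 0.05 and 0.04. At L5 the same long models had 0.22 in queens and 0.05 in workers, against -0.01 and -0.03. At 2 to 4 FPKM, the 40 long models had 0.67 at L1 and 0.60 and 0.71 in L5 queens and workers, and the 437 shorter ones 0.06, 0.25 and 0.17. At 1 to 2 FPKM, 30 long models had 0.50 at L1, 0.30 in both castes at L3 and 0.52 and 0.64 in queens and workers at L5. The 249 shorter ones had 0.06 at L1, 0.10 and 0.05 in queens and workers at L3 and 0.40 and 0.47 at L5. Under 1 FPKM, the 124 long models and the 806 shorter ones both had 0.03 at L1, and in L5 queens they had 0.60 and 0.40 and in L5 workers 0.66 and 0.48. The L5 medians of long models were thus below those of L1 and L3 at 8 to 16 and 16 to 32 FPKM, and above them at 1 to 2 FPKM. In that lowest bin drawn, the L5 medians of the shorter models were above their younger ones as well.

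**Figure D4:**
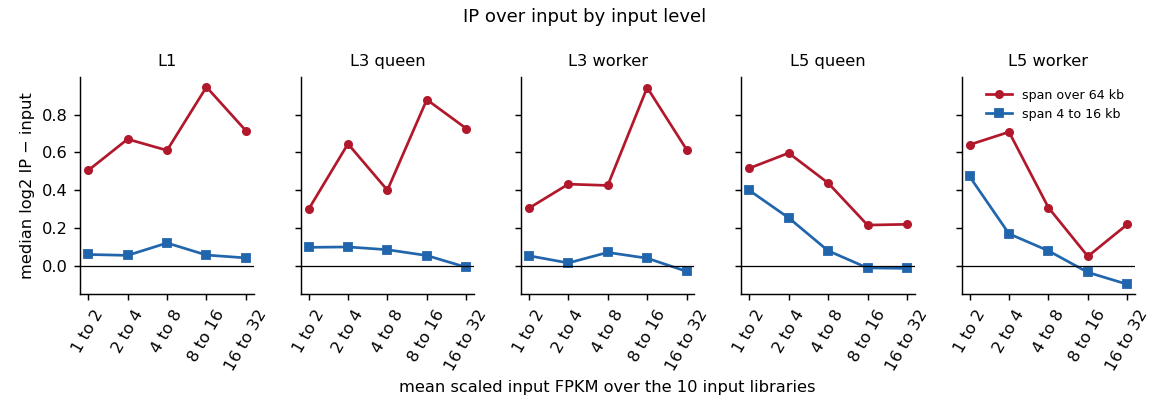
Median log2 IP minus input by bin of mean scaled input FPKM (horizontal axis), 1 panel per kind of larva, for models over 64 kb (circles) and of 4 to 16 kb (squares). Circles lie above squares in every bin shown, most at 8 to 16 FPKM in L1 and L3 (0.88 to 0.95 against 0.04 to 0.06). The bin under 1 FPKM is not drawn, nor are the 2 bins above 32 FPKM, which hold 1 long model each.

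Fitted within instars, 102 of 190 long models were higher in IP at L1 and 8 lower (30.9% and 29.7% of all models), 94 and 5 for queens at L3 (29.8% and 29.1%), and 93 and 9 in L3 workers (30.3% and 31.1%). At like level the shares were 35.9% and 21.0% at L1, 34.5% and 19.9% for queens at L3 and 34.0% and 21.0% for workers. With the L5 libraries fitted alone, limma called 0 of 187 long models in either caste, beside 0 of all 10287 models in queens and 0.272% in workers. At an unadjusted p under 0.05 there were 22 long models in queens (11.8%, beside 922 of all models, 8.96%) and 36 in workers (19.3%, beside 1834, 17.8%). These fits, too, were filtered on IP and input together. At L1 and L3 they tested 190 long models, where 180 passed on input alone, and at L5 187, where 153 did.

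The difference of enrichment between instars was tested directly. In queens 12 of 194 long models had a lower ratio at L5 than at L3 and 4 a higher one, 6.19% and 2.06%, where all models had 10% lower and 8.73% higher and the models of like level 11.2% and 4.201%. In workers 15 were lower and 5 higher, 7.73% and 2.58%, where all models had 7.07% and 6.05% and those of like level 7.50% and 2.52%, close to the long ones. The median difference was -0.26 in queens and -0.29 in workers, against 0.12 and 0.09 for all models and -0.15 and -0.23 for those of 16 to 64 kb. With both directions summed, 8.25% of the long models were called in queens beside 18.8% of all models, and 10.3% beside 13.1% in workers, and both the number and the direction of calls varied with the processing. On FPKM as deposited, which moved the median of all models to 0.50 and 0.51, queens had 11 of each direction (all models 19.1% up and 5.8% down) and workers 11 up and 7 down (all models 13.3% and 2.77%). With no filter on low values queens had 18 up and 10 down (all models 7.82% and 6.73%) and workers 27 and 15 (all models 8.26% and 5.08%). The count of 16 in queens became 5 when L3 queen replicate 1 was left out (2.55%, beside 4.72% of all models), 4 when replicate 2 was (2.07%, beside 4.44%), and 9 when either L3 worker replicate was (4.52% and 4.5%, beside 12% in both). That of 20 in workers was 0 without L3 worker replicate 1 or 2, where 0.538% and 0.48% of all models were called, and 10 without L5 worker replicate 1 (5.13%, beside 7.63%). With the spreads of L5 and of younger larvae estimated apart it was 13 in queens (12 down, beside 13.5% of all models) and 11 in workers (10 down, beside 8.68%). On simulated data these fits, too, made more false calls than the adjusted p states (20% of the calls in queens and 22.5% in workers). Between castes, 0 of 190 long models differed in enrichment at L3 (limma, 0.0691% of all models, 0.0395% higher and 0.0296% lower) and 0 of 187 at L5 (0% of all models). An unadjusted limma p under 0.05 was reached by 2 long models at L3 (1.05%, beside 3.15% of all models) and 5 at L5 (2.67%, beside 3.04%). On simulated data the L5 fit of this kind recovered 51.5% of changes of 3 log2 units and 0% of those of 1.

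The highest enrichment was that of GB55754 (Group3.8, 1559932 to 1693091, minus strand). Its IP was 49.0 and 72.3 FPKM at L1, 26.03 and 30.9 for queens and 30.2 and 31.8 for workers at L3. The input beside these was 2.49 and 4.15, 1.22 and 3.196, and 3.96 and 4.05. At L5 its IP had 1.62 and 2.01 FPKM in queens and 2.39 and 6.66 in workers, while its input was listed at 0 and 0.180 in queens and 2.86 and 0.723 in workers. Younger IP values were all above every input value, and at L5 they were not. Over all larvae the ratio was 2.63 ± 0.20 log2 units (SE, limma adjusted p = 9.67e-08). GB50064 (Group15.19, 1038507 to 1181911, minus strand) had an IP of 48.8 and 57.9 over an input of 6.70 and 9.48 FPKM at L1, and 6.51 to 12.3 over 1.01 to 1.62 at L3. At L5 it had 3.86 to 5.31 in IP, over an input of 0.711 to 1.72 in 3 libraries and a value listed at 0 in 1. Its ratio was 2.29 ± 0.14 (limma adjusted p = 1.20e-08). Both overlap no other model.

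Depletion was smaller. GB47217 (Group11.16, 1336138 to 1421896, minus strand, overlapping 6 other models) had a ratio of -0.85 ± 0.24 (limma adjusted p = 0.00698), with 3.63 to 10.2 FPKM in IP and 6.31 to 34.1 in input over all larvae. GB55088 (Group12.8, 226101 to 323424, plus strand), which overlaps no other model, had 12.5 and 25.05 FPKM in IP against 40.5 and 72.8 in input at L1. In L5 queens its IP of 12.8 and 5.67 overlapped its input of 10.9 and 9.41. Its ratio over all larvae was -0.84 ± 0.19 (limma adjusted p = 0.00160).

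GB48521 and GB55855 had the largest drop of the ratio from L3 to L5 in queens. GB48521 (Group6.16, 872450 to 984395, minus strand, overlapping another model) had an input of 15.4 and 21.9 FPKM in L3 queens and 17.7 and 9.41 in L5 queens. Its IP was 104 and 122 at L3 and 19.9998 and 16.3 at L5. Input overlapped between the instars and IP did not, and the ratio fell by 2.56 log2 units (SE 0.46, limma adjusted p = 0.00276). In workers the IP was 117 and 115 at L3 and 30.8 and 34.7 at L5, over an input of 18.1 and 17.8 and of 17.0 and 10.6. GB55855 (Group3.8, 1920559 to 2091311, plus strand, overlapping another model) had 43.1 and 53.9 FPKM in L3 queen IP and 11.97 and 10.1 in L5 queen IP, over an input of 8.98 and 12.3 and of 12.6 and 7.71, a change of -2.40 ± 0.43 (limma adjusted p = 0.00262). In workers the largest drops were those of GB40061 (Group13.7, 1871626 to 1993850, minus strand, overlapping other models) and GB55760 (Group3.8, 1201581 to 1346463, minus strand, overlapping another model). GB40061 had an IP of 20.3 and 31.9 FPKM over an input of 6.44 and 6.70 in L3 workers, and 0.910 and 1.18 over 2.86 and 2.08 in L5 workers. GB55760 had an IP of 75.8 and 80.5 over 27.5 and 28.9 in L3 workers, and 12.1 and 24.4 over 22.7 and 21.5 in L5 workers. Both calls were lost without either L3 worker replicate, with limma adjusted p between 0.0530 and 0.145, and that of GB55760 also without L5 worker replicate 1 (limma adjusted p = 0.0871).

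The 8 longest models did not behave alike. GB52279 (Group5.2, 1167439 to 1495692, minus strand, 328254 bases) had 1.77 and 1.43 FPKM at L1 input and at most 1.06 in older larvae, and did not pass the filter on low values. GB51630 (Group1.37, 1972050 to 2284366, plus strand) had 3.67 and 4.52 FPKM at L1 and fell to 0.966 and 1.51 in queens at L3 (limma adjusted p = 0.0326), and its ratio of IP to input was 0.01 ± 0.12 over all larvae (SE, limma adjusted p = 0.949). GB54295 (Group10.24, 620787 to 932208, plus strand), which overlaps no other model, had an IP of 47.7 and 60.7 FPKM over an input of 13.0 and 14.4 at L1, and 24.2 to 29.0 over 5.70 to 7.44 at L3. At L5 it had 2.82 to 5.06 over 1.71 to 4.83, where IP and input overlapped. Its ratio over all larvae was 1.52 ± 0.16 (limma adjusted p = 1.34e-06).

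GB48655 (Group5.12, 329001 to 628752, plus strand) had more input than IP at L1, 15.98 and 23.99 against 9.93 and 11.5 FPKM, and at L5 the reverse in 4 of the 4 pairs, and its ratio over all larvae was 0.02 ± 0.14 (limma adjusted p = 0.905). GB43054 (Group6.12, 16163 to 305977, plus strand) had an input of 9.14 and 13.9 FPKM at L1, 3.41 to 4.19 at L3 and 0.272 to 1.49 at L5, and the fall from L3 to L5 was called in both castes (limma adjusted p = 0.0129 in queens and 0.0182 in workers). GB43497 (Group11.14, 177429 to 456887, minus strand) had 1.70 and 2.67 FPKM at L1 and 1.29 to 1.98 at L3, and it passed in neither change to L5 (limma adjusted p = 0.1003 in queens and 0.0735 in workers). GB49722 (Group1.5, 118960 to 387324, minus strand) ranged from 11.4 to 25.4 FPKM in younger larvae. In each L5 caste it had a value listed at 0 in 1 library and 3.92 or 3.87 FPKM in the other, while its L5 IP had 4.18 to 8.05. Its change was -2.65 ± 0.91 in queens and -2.77 ± 0.91 in workers (limma adjusted p = 0.0444 and 0.0442). The worker call was lost without any 1 of the L1 and L3 replicates (limma adjusted p between 0.0673 and 0.153) and without L5 worker replicate 1, 1 of those listed at 0 (limma adjusted p = 0.213), and with the spreads of L5 and of younger larvae estimated apart (limma adjusted p = 0.112).

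**Figure D5:**
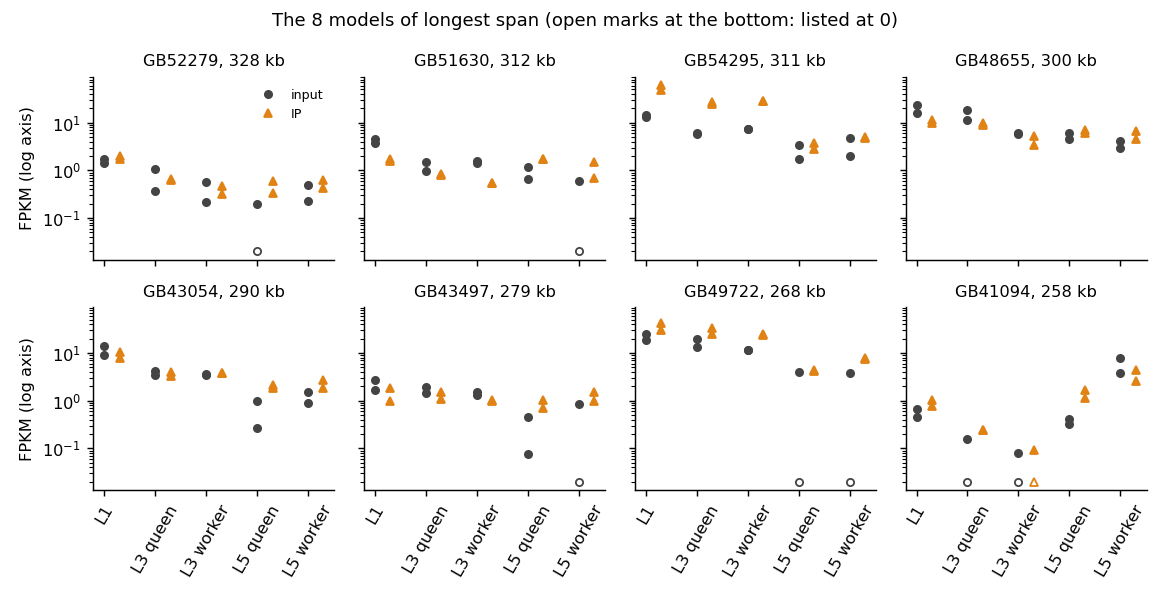
FPKM as deposited (vertical log axis) of the 8 models of longest span in input (circles) and IP (triangles), 2 libraries per kind of larva; open marks at the bottom stand for values listed at 0. IP lies above input at L1 and L3 for GB54295 (24.2 to 60.7 against 5.70 to 14.4) and below it at L1 for GB48655 (9.93 and 11.5 against 15.98 and 23.99), and the input of GB41094 is highest in L5 workers (3.74 and 7.78).

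The eighth, GB41094 (Group6.9, 36538 to 294648, minus strand), went the other way. Its input was at most 0.158 FPKM at L3, 0.321 and 0.410 for queens at L5 and 3.74 and 7.78 for workers, a rise in workers of 2.83 ± 0.39 log2 units (SE, limma adjusted p = 0.00109). It passed the filter on low values only through L5, with a mean of 0.164 FPKM in younger larvae. It holds GB41096 (81829 to 95728, plus strand) inside it, which had 0.2496 and 0.301 FPKM in L3 workers and 477 and 376 in L5 workers. The library kit does not mark strand, so reads of a model and of one inside it cannot be told apart by strand. GB41096 had 159 and 294 FPKM in L5 queens, where GB41094 had 0.321 and 0.410. Whether reads of GB41096 enter the value of GB41094 was not tested.

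Such nesting was common: 151 of the 301 long models (50.2%) overlap another model, against 26.7% of those of 4 to 16 kb and 21.8% of all. Inside 119 of them lie 197 other models, up to 6 in 1, with a median span of 1436 bases, and all 197 are on the strand opposite to their host. Of the 197, 53 had a mean scaled input of at least 1 FPKM, and 58 were more abundant than their host. GB43054 holds GB43053 (Group6.12, 39114 to 48286, minus strand) and GB43052 (48955 to 62093, minus strand). They had 86.6 and 231 and 79.5 and 226 FPKM in the L1 input libraries, and 153 and 189 and 156 and 185 in L5 workers, where the host had 1.49 and 0.913.

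Long models were spread over 143 scaffolds, 148 on the plus and 153 on the minus strand. Most (231) shared a scaffold with another, and the largest groups were 12 on Group9.10 and 8 on Group3.8, which holds 3 of the models named here, GB55754, GB55855 and GB55760. Besides GB43005, the most abundant were GB46739, GB47977 and GB47009. GB46739 (Group5.9, 11417 to 103936, plus strand) ranged from 30.2 to 51.9 FPKM over the younger input libraries, with 21.5 and 22.1 for queens at L5 and 60.1 and 54.1 for workers. GB47977 (Group7.19, 357894 to 540207, plus strand) ranged from 24.8 to 51.9 FPKM in younger larvae, with 9.87 and 14.6 for queens at L5 and 31.98 and 32.01 for workers. GB47009 (Group3.15, 765069 to 843447, minus strand) ranged from 28.9 to 72.9 FPKM in younger larvae and 8.20 to 13.2 at L5, and its fall was called in queens (limma adjusted p = 0.0127) and in workers (limma adjusted p = 0.00890). GB43005 was not enriched by the test, with a ratio of 0.26 ± 0.14 (limma adjusted p = 0.110), while GB47977 and GB47009 had ratios of 1.29 ± 0.20 and 1.24 ± 0.20 (limma adjusted p = 7.46e-05 and 0.000103). At L5 the IP of GB47009 was 8.79 and 9.50 FPKM over an input of 8.20 and 9.39 in queens, and 12.1 and 18.9 over 12.4 and 13.2 in workers. That of GB47977 was 11.8 to 76.8 over 9.87 to 32.01. GB46739 had an IP of 34.3 to 53.1 FPKM as deposited in younger larvae, over its input of 30.2 to 51.9. After scaling, IP of GB46739 exceeded input by 0.73 log2 units in L1 larvae. The excess for L3 was 0.59 (queens) and 0.47 (workers), and for L5 it was 0.04 (queens) and 0.15 (workers). No test result is given here for the ratio of this model.

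At the threshold of 64000 bases, the shortest models inside were GB40916 (64058 bases, mean scaled input 1.62 FPKM), GB53840 (64086 bases, listed at 0 in every input library) and GB53682 (64138 bases, 0.313 FPKM). The longest models outside were GB43702 (63847 bases, 1.09 FPKM), GB55036 (63802 bases, 1.19 FPKM) and GB48689 (63778 bases, listed at 0 in every input library).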

How the data were processed

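The authors deposited 1 FPKM value per gene model and library, per the file headers, and HISAT2 2.1.0 is named in the submitters' processing notes. What computed the FPKM, and on which build and annotation, is not given in the sources used here. Coordinates are quoted as deposited. Per the labels' protocols, the library kit was NEBNext Ultra RNA. That kit leaves strand unmarked. Members, lists and tests were chosen with earlier results of these data known.

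FPKM was divided by median-of-ratios factors from models above 1 FPKM in every library (7511 for the 10 input libraries, 6947 for all 20). Models whose scaled FPKM averaged at least 1 over the libraries of a fit were tested by limma 3.58.1 (R 4.3.3; linear fit of log2(FPKM + 1), empirical Bayes variances with an abundance trend), with p-values adjusted by Benjamini and Hochberg over all models tested. This scale understates changes of low models. Because L5 replicates varied more, comparisons within L1 and L3 used only those libraries, those within L5 only the L5 libraries, and those across instars all libraries with a pooled spread. The fits were tested on data simulated with known changes in 200 models. Across instars the data had more calls than that, so the false shares of the simulation may differ from those in the data. Fits across instars (L5 against L3, in expression and in IP over input, and the caste difference between instars) made more false calls than an adjusted p of 0.05 states, also with a weight per library and with the spreads of L5 and of younger larvae estimated apart. The mean ratio over all larvae and some comparisons within L1 and L3 exceeded it slightly. Fits of L5 alone, between castes, recovered 0% of the known changes of 1 log2 unit. Of those of 3 log2 units they recovered 38.7% in expression and 51.5% in IP over input.

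Like input level means bins of mean scaled input FPKM with edges at 1, 2, 4, 8, 16, 32 and 64, with 4 to 16 kb models weighted to the mix of the long ones. Named models are the 2 highest and 2 lowest past the threshold per comparison, the 8 longest, the 4 most abundant, the 3 on each side of the span threshold, and the 3 most abundant models inside the 8 longest. Figures were drawn with matplotlib 3.10.9.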

Additional observations from a re-analysis of the deposited data

Results flagged for a closer look

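A test of the difference between 2 groups of larvae was passed by 2 long models for the caste difference in expression, and for IP over input from L3 to L5 by 16 in queens and 20 in workers. The 10 described here are the 2 highest and 2 lowest of each that passed. The caste difference in input at L5 minus that at L3 was -3.63 log2 units for GB43005 (SE 0.47, limma adjusted p = 0.00504), with queen libraries above worker libraries at L3 (721 and 820 against 153 and 126 FPKM) and below them at L5 (50.3 and 92.4 against 213 and 275). It was -2.41 for GB41094 (SE 0.56, limma adjusted p = 0.0382), a call lost with a pseudocount of 0.1, with a weight per library, with the spreads of L5 and of younger larvae estimated apart and without any 1 of the L1 or L3 replicates (limma adjusted p between 0.0649 and 0.142). These were the 2 of 177 long models that passed, where 7.98% of all models did. Fits across instars made more false calls on simulated data than their adjusted p states, 35.7% of the calls for this caste difference. The number of long models that passed was 1 without any 1 of the 6 L1 and L3 replicates (1.8% to 4.82% of all models passed), 10 and 8 without L5 queen replicates 1 and 2 (17.5% and 10.1% of all models), and 11 without L5 worker replicate 1 (9.08%).

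IP over input at L5 minus that at L3 was higher in queens for GB52945 (1.75) and GB55183 (1.60), and lower for GB48521 (-2.56) and GB55855 (-2.40). In L5 queens the input of GB52945 was 0.137 FPKM and a value listed at 0, and that of GB55183 was 2.49 and 0.816, against 4.45 and 2.65 and 10.99 and 11.6 at L3. In workers it was higher for GB40602 (2.04) and GB51947 (1.85), and lower for GB40061 (-3.04) and GB55760 (-2.31). GB40602 was listed at 0 in both L5 worker inputs and GB51947 in 1 of them. GB40602 passed the filter on low values only through the L5 libraries, where its IP was 1.73 to 9.78 FPKM. In L3 workers it was listed at 0 in IP and input, and its mean over the other larvae was 0.389 FPKM, so its call is no independent sign of a change. The calls of GB40602 and GB51947 in workers were lost without any 1 of the L1, L3 queen or L3 worker replicates and with the spreads estimated apart (limma adjusted p = 0.0532 and 0.0694). Those of GB52945 and GB55183 were lost with a weight per library (limma adjusted p = 0.113 and 0.0679) and without L3 queen replicate 2 or L5 queen replicate 2 (limma adjusted p between 0.0593 and 0.161). That of GB55183 was also lost with the spreads estimated apart (limma adjusted p = 0.0626).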

How the results depend on the processing

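Values here are the percent of tested long models called (limma, adjusted p under 0.05), with the percent of all models called at the same setting in brackets, or the gap in median log2 IP over input between long and 4 to 16 kb models. A percent called has no direction, and the median change of the long models switched sign in several fits. On FPKM as deposited it went from -0.17 to 0.33 for L3 castes, from 0.17 to -0.36 for the caste difference between instars, and for IP over input at L5 minus L3 from -0.26 to 0.08 in queens and from -0.29 to 0.12 in workers. With no filter on low values those last 2 were 0.08 and 0.17, and that of L5 castes went from -0.08 to 0.04. It was 0.03 for L3 workers against L1 without L1 replicate 2, and -0.002 for the caste difference between instars without L3 queen replicate 1. The medians of IP over input between castes, both within 0.03 of 0, switched in 10 fits.

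On FPKM as deposited, the percent was 34.4 (57.5) for L3 queens against workers, 50.6 (30.1) and 77.8 (77.7) for L3 queens and workers against L1 and 8.47 (13.3) for the caste difference at L5 minus that at L3, and the gap was 0.51 at L1 and, at L3, 0.44 for queens and 0.38 for workers. With no filter on low values, the percent was 9.36 (15.7) for L3 castes, 21 (17.1) for L3 queens against L1, 0 (0.0167) for L5 castes, 0.727 (5.92) for the caste difference between instars and 0.694 (0.334) for IP over input between L3 castes. With the spread pooled over all larvae it was 3.95 (7.61) for L3 castes, 9.6 (8.61) and 12.4 (19.3) for L3 queens and workers against L1 and 9.04 (11.4) for L5 castes. A weight per library gave 0.565 (3.85) for the caste difference between instars and 2.58 (8.95) for IP over input at L5 minus L3 in queens. With the spreads of L5 and of younger larvae estimated apart, added after the data were seen, these were 0.565 (5.47) and 6.7 (13.5), and 5.67 (8.68) in workers. Above 2 times the span threshold the percent was 9.62 (23.9) for L3 castes, 0 (0.773) for L5 castes, 1.96 (7.98) for the caste difference between instars and 17.2 (13.1) for IP over input at L5 minus L3 in workers, and the gap was 0.97 at L1, 0.88 for either caste at L3 and 0.40 in L5 workers. For L5 castes a pseudocount of 0.1 gave 0 (0.0206), and models that overlap no other 0 (1.63). The gap was 0.60 and 0.56 in L3 queens and workers with a pseudocount of 0.1, 0.43 at L1 and, for L3, 0.33 in queens and 0.36 in workers with bins from input FPKM 0.25, 0.82 at L1 and 0.59 in L3 workers for models that overlap no other, 0.49 in L3 workers with no weighting, and 0.68, 0.57 and 0.53 at L1, in L3 queens and in L3 workers against all models up to 64 kb. The causes were not tested.

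Same-numbered IP and input libraries deviated together with r of 0.646 at L1, 0.634 and 0.426 in queens and 0.163 and 0.0793 in workers. As 1 of the 5 is under 0.1 and the labels name no shared source, the numbers were not taken to pair the samples, and the other 4 are a hint from the data. With the replicate block the percent was 23.9 (28.4) for L3 castes and 3.92 (4.16) for L5 castes. For IP over input at L5 minus L3 it was 30.4 (35.1) in queens, 49 lower and 10 higher, and 31.4 (29.1) in workers, 51 lower and 10 higher, against 8.25 (18.8) and 10.3 (13.1) without the block. All models had 17.3 lower and 17.8 higher in queens and 15.1 and 14.0 in workers with it.

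Leaving out 1 replicate gave 3.31 to 20.6 (7.22 to 24.0) for L3 castes, 12.2 to 35 (12.5 to 16.4) for L3 queens and 16 to 32.2 (21.1 to 40.6) for L3 workers against L1, 22.7 to 51.4 (26.7 to 49.6) for queens and 15.9 to 46.7 (18.3 to 46.3) for workers at L5 against L3, 0 to 0 (0 to 0) for L5 castes and 0.562 to 6.08 (1.8 to 17.5) for the caste difference between instars. For IP over input it gave 62.5 to 69.4 (59.1 to 68.7) over all larvae and 2.07 to 10.8 (4.44 to 23.3) in queens and 0 to 13.3 (0.48 to 21.0) in workers at L5 minus L3, and gaps of 0.49 to 0.54 in L3 queens and 0.51 to 0.55 in L3 workers. Read depth is unknown, and values listed at 0 limit the L5 input most.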
